A study of Mus musculus with 12 samples.

Results

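The comparison described here is that of an EZH2 inhibitor with its solvent in cultured mouse neural stem cells that carried wild-type histone H3.3. Its members are all 13643 genes listed in the wild-type inhibitor table, of 14610 genes listed in any table of the series. The cells, labelled PDGF Neural Stem Cells and titled PDGFB, after the ligand of the platelet-derived growth factor receptors, were grown in neural stem cell medium with EGF and basic FGF. Their genotype label is H3WT, and the other cells of the series carry the K27M form of H3.3. The wild-type cells received either DMSO or 3 µM of the EZH2 inhibitor EPZ6438 for 12 days, with 3 RNA-seq libraries in each group. The labels number the libraries but do not state whether they are separate cultures or separate lines, so the p-values cover only how far these samples differ, and that spread may be technical.

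EZH2 is the catalytic subunit of Polycomb repressive complex 2 (PRC2), which places methyl groups on lysine 27 of histone H3. The trimethylated form, H3K27me3, is bound by Polycomb repressive complex 1 and marks silent developmental genes, many of which start in CG-rich sequence. In neural stem cells such genes include the Hox clusters, the transcription factors of other tissues and factors of later neural fates. EPZ6438, also known as tazemetostat, competes with the methyl donor of EZH2 and blocks the methyl transfer, so that H3K27me3 is lost as cells divide.

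Total estimated counts ran from 10729421 to 15664165 in the DMSO libraries and from 7856396 to 13479588 under the inhibitor. Levels are given as CPM (counts per 1000000, with TMM normalization), in the order of replicates 1, 2 and 3. DMSO replicate 1 stood apart: its counts differed from those of replicates 2 and 3 with a chi-square that averaged 23.7 and 19.7 a gene, while replicates 2 and 3 gave 3.01 and pairs of inhibitor libraries 2.61 to 9.92. Its deviations from the group mean followed the GC content of the gene (Spearman -0.823 over genes, which do not count as independent). The same correlation was -0.632, 0.678 and -0.290 for the inhibitor libraries and 0.719 and 0.679 for DMSO replicates 2 and 3. Deviations from a group mean sum to 0, so the values within a group are not independent. The inhibitor's log2 fold change itself went with GC content over all tested genes (Spearman -0.405). Median transcript GC was 47.4% for rises and 53.8% for falls under 2-fold. For changes of at least 2-fold it was 49.9% for rises and 53.7% for falls, and over all tested genes 50.5%. Small changes in either direction and large falls thus went with GC. The cause of these trends was not tested. Where the removal of the GC trend or of DMSO replicate 1 changed the call of a gene named here, both values are given.

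The inhibitor raised many genes that were silent or nearly silent in DMSO and lowered many of the most abundant ones. Of 12870 genes that passed the filter on low counts, 2752 rose (21.4%) and 2668 fell (20.7%) at an adjusted p below 0.05 in edgeR's quasi-likelihood test. At least 2-fold, 954 rose (7.41%) and 320 fell (2.49%). The median log2 fold change over all tested genes was 0.04. The 47 genes with 0 counts in the DMSO libraries all rose and reached the table through the inhibitor libraries, since a listed transcript needs 5 counts in 3 libraries. With them left out, 2705 of 12823 genes rose (21.1%). The values of all 3 inhibitor libraries lay above all 3 DMSO libraries for 3585 tested genes and below them for 3540.

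The balance of rises and falls moved with the level in DMSO. Of 1919 genes at 0.5 to 5 CPM in DMSO, 425 rose and 83 fell at least 2-fold, and of 5587 genes at 5 to 50 CPM 248 and 139 did. Among 4869 genes at 50 to 500 CPM 35 rose and 79 fell at least 2-fold. Of 238 genes at 500 CPM or more 126 fell and 20 rose, and 19 of the falls and 1 of the rises were at least 2-fold. The 157 genes with more than 3 counts but under 0.5 CPM included 145 rises and 0 falls, and the 53 genes with 1 to 3 counts all rose, but genes this low pass the filter mainly through the inhibitor libraries and could hardly fall. Genes at 0.5 to 1 CPM can pass it that way too, so the counts at 0.5 to 5 CPM also lean toward rises. At 1 to 5 CPM 303 genes rose at least 2-fold and 1257 other tested genes did not. Sorting by the DMSO level, which is part of the fold change, also tilts low genes upward and high genes downward.

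**Figure D1:**
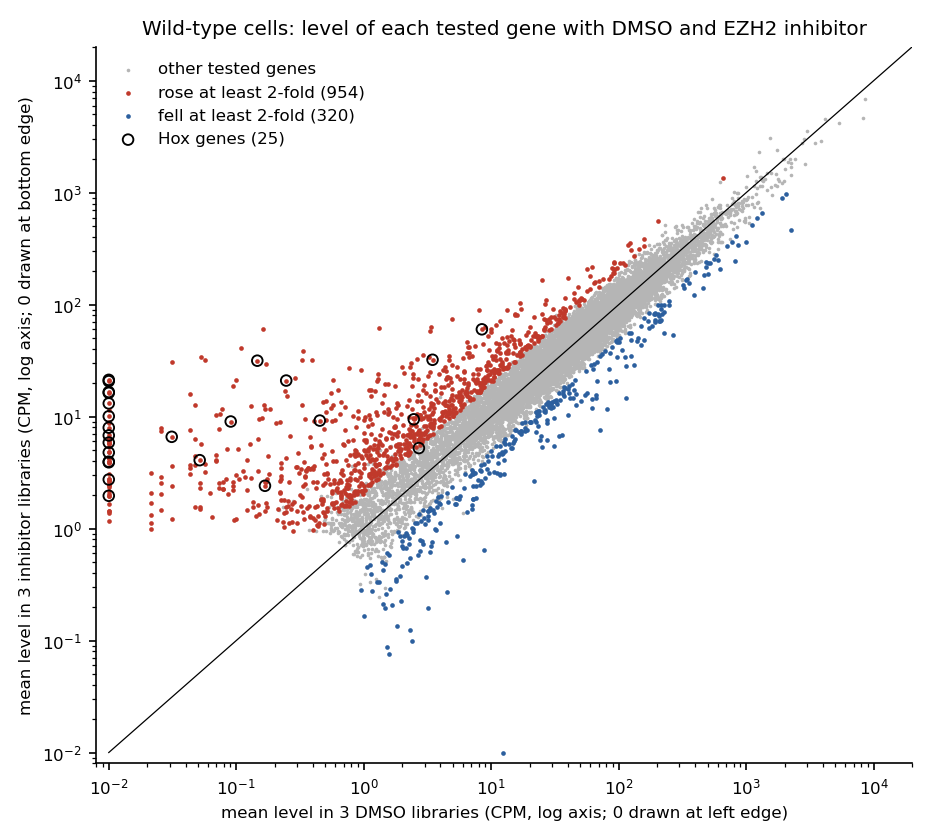
Mean level of each tested gene in the 3 DMSO libraries (x axis) and the 3 inhibitor libraries (y axis), in CPM on log axes with 0 drawn at the left or bottom edge. Genes that rose or fell at least 2-fold are coloured and the 25 Hox genes are marked. Low genes lie mostly above the diagonal, with 425 rises and 83 falls of at least 2-fold at 0.5 to 5 CPM, and among the most abundant genes falls are the more frequent. Genes under 1 CPM in DMSO can pass the filter through the inhibitor libraries alone, which favours rises among them.

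The largest rises among genes of at least median abundance included St8sia2, Pcolce and Pcsk5. St8sia2, a polysialyltransferase that adds polysialic acid to the adhesion molecule NCAM, had 5.35, 5.05 and 4.40 CPM in the DMSO libraries and 71.8, 74.6 and 76.5 CPM under the inhibitor. All inhibitor values were far above the DMSO values (log2 fold change 3.92, SE 0.0966, adjusted p = 4.59e-06). Pcolce, an enhancer of procollagen processing, rose 11.2-fold from 8.04 ± 1.75 to 89.7 ± 9.99 CPM (SD, n = 3), and Pcsk5, a proprotein convertase, rose 6.84-fold. Ptprd, a receptor phosphatase of synapses, had 36.0, 18.1 and 20.9 CPM in DMSO and 198, 131 and 174 CPM under the inhibitor, with replicate 1 highest in both groups (log2 fold change 2.74). The collagen gene Col11a1 rose 6.14-fold, the matrix protein gene Hmcn1 6.09-fold, the adhesion gene Pcdh17 5.93-fold and Apcdd1, a membrane inhibitor of Wnt signalling, 5.39-fold. Shisa9, an auxiliary subunit of AMPA receptors, rose 5.30-fold and the kinesin motor gene Kif5c 5.21-fold.

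The largest falls among genes of the same abundance included Car8, Trf and Agt. Car8, a carbonic anhydrase relative that lacks the enzyme activity, had 82.2, 62.3 and 68.1 CPM in DMSO and 8.64, 7.60 and 6.57 CPM under the inhibitor. The groups did not overlap (log2 fold change -3.22, SE 0.148, adjusted p = 2.06e-05). The iron carrier gene Trf fell 6.81-fold from 81.3 ± 5.84 to 11.8 ± 2.17 CPM. Agt, the precursor of angiotensin made by astrocytes, went from 57.8, 68.0 and 59.1 to 12.1, 11.7 and 11.9 CPM. Its inhibitor values were all below DMSO (log2 fold change -2.37, adjusted p = 1.36e-05). Rab3b, a GTPase of secretory vesicles, fell 5.003-fold, Olig1, a factor of the oligodendrocyte lineage, 4.78-fold, and Nebl, an actin-binding gene, 4.58-fold. In bulk libraries fewer cells of a type and less RNA per cell cannot be told apart. Car3, a carbonic anhydrase of muscle and fat, fell 4.54-fold, the zinc finger gene Zcchc12 4.52-fold and the peroxidase gene Lpo 4.27-fold. At the low end, Ifi35, an interferon-induced gene, went from 59 counts over the DMSO libraries to 2 under the inhibitor (ratio of DMSO to inhibitor 22.9, 95% counting interval 6.08 to 194), and the aldo-keto reductase gene Akr1b7 from 61 to 3 counts (ratio 15.8, interval 5.16 to 78.8). B430305J03Rik, annotated as protein coding and named here after its values were seen, was the 1 tested gene with 0 counts in all inhibitor libraries: its DMSO values were 2.71, 16 and 18.6 CPM, at least 128-fold higher than under the inhibitor (adjusted p = 0.0123).

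All 25 Hox genes that were measured rose. Hox genes encode the homeodomain factors that give cells their position along the body axis, lie in 4 clusters and are classical targets of PRC2. They carry 39 gene names, and the other 14 were not analysed here. Summed over the 25 genes, the libraries held 17.5 to 18.9 CPM in DMSO and 305.9 to 347.6 CPM under the inhibitor. HoxA genes made up nearly all of the DMSO sum (17.1 to 18.9 CPM), the 9 HoxB and 4 HoxD genes stood at 0 counts in every DMSO library, and Hoxc13 did too. These 14 genes could only rise, so their direction is fixed by the listing and their level under the inhibitor is what the data give. Hoxa6, Hoxa7, Hoxa9, Hoxa10, Hoxc4 and Hoxc9 were near 0 in DMSO and could hardly fall either.

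Within the HoxA cluster on chromosome 6 the genes already transcribed in DMSO rose least. Hoxa5 had 8.60, 8.79 and 7.95 CPM in DMSO and 54.3, 65.6 and 60.7 CPM under the inhibitor, and Hoxa3 had 2.40, 4.12 and 3.88 and 28.4, 34.5 and 33.6 CPM. The inhibitor values of both lay well above DMSO (log2 fold change 2.84 and 3.22, adjusted p = 1.16e-05 and 5.39e-05). Hoxa2 and Hoxa4 rose by 4.30 and 1.94 on the log2 scale. The 4 genes toward the posterior end were near 0 in DMSO and rose most: Hoxa7 went from 5 to 983 counts in all 3 libraries together (log2 fold change 7.83), Hoxa6 from 1 to 203 (ratio 261, 95% counting interval 46.3 to 10359.6), Hoxa9 from 4 to 279 and Hoxa10 from 10 to 644 (log2 fold change 6.33 and 6.31). Per kilobase of transcript, Hoxa5 was the most abundant Hox gene under the inhibitor at 32.1 ± 3.01 CPM per kilobase (SD, n = 3), above Hoxa7 at 16.02 ± 2.51, Hoxa3 at 12.4 ± 1.27 and Hoxa10 at 11.3 ± 2.08. Hoxa3 and Hoxa10 did not differ beyond their spread.

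The clusters that were silent in DMSO reached lower levels per kilobase than Hoxa5, Hoxa7 and Hoxa3. Hoxb2, the highest HoxB gene per kilobase, did not differ from Hoxa10 beyond their spread. Hoxb3 had 24.3, 20.7 and 18.9 CPM under the inhibitor and Hoxb8 had 20.2, 21.98 and 20.05 CPM, with 0 counts in each DMSO library, which makes them at least 275-fold and 273-fold higher (floor of 3 counts over the group). Hoxb2 and Hoxb9 were at least 223-fold and 213-fold higher, Hoxb6 at least 131-fold and Hoxb4 at least 102-fold. Hoxb7, Hoxb5 and Hoxb13 had the lowest bounds of the cluster, at 37.7-fold, 51-fold and 63.9-fold. Per kilobase, Hoxb2 stood at 9.19 ± 1.62 CPM per kilobase and Hoxb8 at 8.16 ± 0.428, which did not differ beyond their spread, and Hoxb5 and Hoxb7 at 2.06 ± 0.297 and 2.13 ± 0.6001. In the HoxD cluster Hoxd8 reached 14.02, 13.9 and 11.4 CPM, at least 172-fold higher, and Hoxd4, Hoxd9 and Hoxd13 were at least 86.6-fold, 75.9-fold and 52.3-fold higher. HoxC had the lowest sum under the inhibitor, 7.36 to 10.3 CPM. Hoxc4 went from 2 to 125 counts (ratio 80.4, interval 21.8 to 671), Hoxc9 from 7 to 78 (log2 fold change 3.72, adjusted p = 0.00298) and Hoxc13 from 0 to 63.

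**Figure D2:**
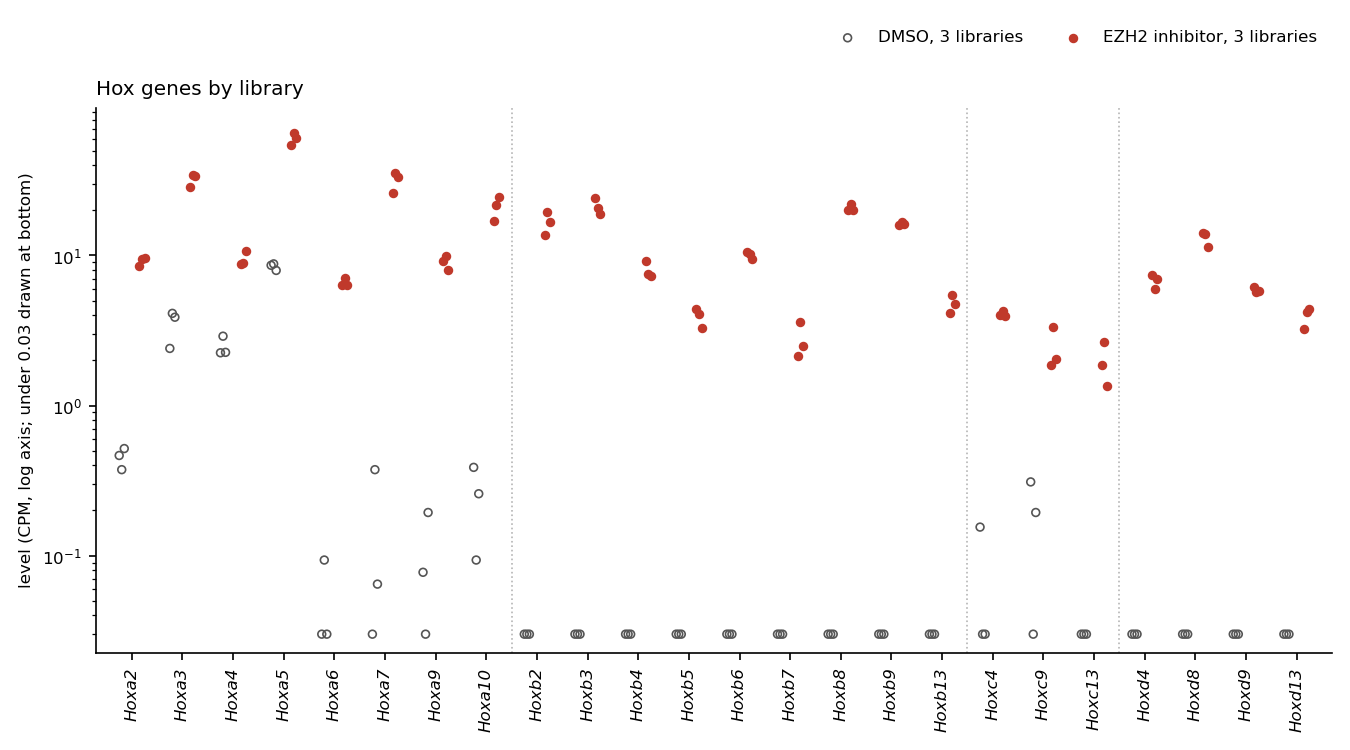
Level of the Hox genes named in the text in each library, in CPM on a log axis with values near 0 drawn at the bottom, ordered by number within the HoxA, HoxB, HoxC and HoxD clusters. Open points are the 3 DMSO libraries and filled points the 3 inhibitor libraries. The groups do not overlap for any gene, and the HoxB and HoxD genes lie at 0 in every DMSO library.

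Most tested transcription factors known from mesoderm, limb, heart, gut and skull rose with the Hox genes, though some were already transcribed in DMSO. Of 18 tested mesoderm and craniofacial factors 17 rose and 0 fell. The list has 32 names, and of the tested members 3 had 0 and 2 had 1 to 3 counts in DMSO, so these entered the test on the strength of their inhibitor values and had no room to fall. Twist1, a mesoderm and neural crest factor, had 0, 0.0935 and 0 CPM in DMSO and 26.03, 33.8 and 31.9 CPM under the inhibitor. Its DMSO values rest on 1 count, against 948 in the inhibitor libraries (ratio 1219, interval 218 to 48195). The limb factor Shox2 and the craniofacial factor Alx1 had 0 counts in DMSO and were at least 83.6-fold and 66.4-fold higher. Eya1, a transcriptional cofactor of early organ development, and Prrx1, a limb mesenchyme factor, were transcribed in DMSO at 20.7 ± 4.14 and 41.1 ± 9.34 CPM and rose 1.88-fold and 1.997-fold. After the GC trend was removed the log2 fold change of Prrx1 was 0.60 in place of 1.0. The list member that did not pass was Msx2, at a log2 fold change of 0.73 (adjusted p = 0.322).

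T-box factors, which pattern mesoderm, limb and heart, moved mostly upward: 7 of 10 rose and 1 fell. Tbx15, a factor of skin and skeleton, had 0.543, 0.374 and 0.259 CPM in DMSO and 31.9, 31.6 and 32.5 CPM under the inhibitor, with hardly any spread between the inhibitor libraries (log2 fold change 6.34, SE 0.184, adjusted p = 7.01e-06). Tbx3, a limb and heart factor, rose from 7 to 386 counts over the group and Tbx18, an epicardial and mesenchymal factor, 6.88-fold. Tbx20 and Tbx5, both heart factors, went from 3 to 116 and from 4 to 37 counts. Tbx15, Tbx3, Tbx20 and Tbx5 were so low in DMSO that they could hardly fall. The member that fell was T, the brachyury factor of early mesoderm, from 63 to 9 counts (log2 fold change -2.41, adjusted p = 0.0153). Of 10 forkhead and GATA factors 8 rose and 0 fell. All 8 had 3 counts or fewer over the DMSO libraries, so they entered the test on the strength of their inhibitor values and had no room to fall. Foxa1 and Gata6, endoderm factors, had 5.76, 6.49 and 7.02 and 5.76, 6.49 and 6.23 CPM under the inhibitor and were at least 84.0-fold and 81.0-fold higher, and Foxa2 and the ovary factor Foxl2 were at least 33.9-fold and 28.7-fold higher. Foxc1, at 23.3 ± 1.76 CPM in DMSO, did not pass (log2 fold change -0.29, adjusted p = 0.0692), though it passed without DMSO replicate 1 (-0.31, adjusted p = 0.0487).

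**Figure D3:**
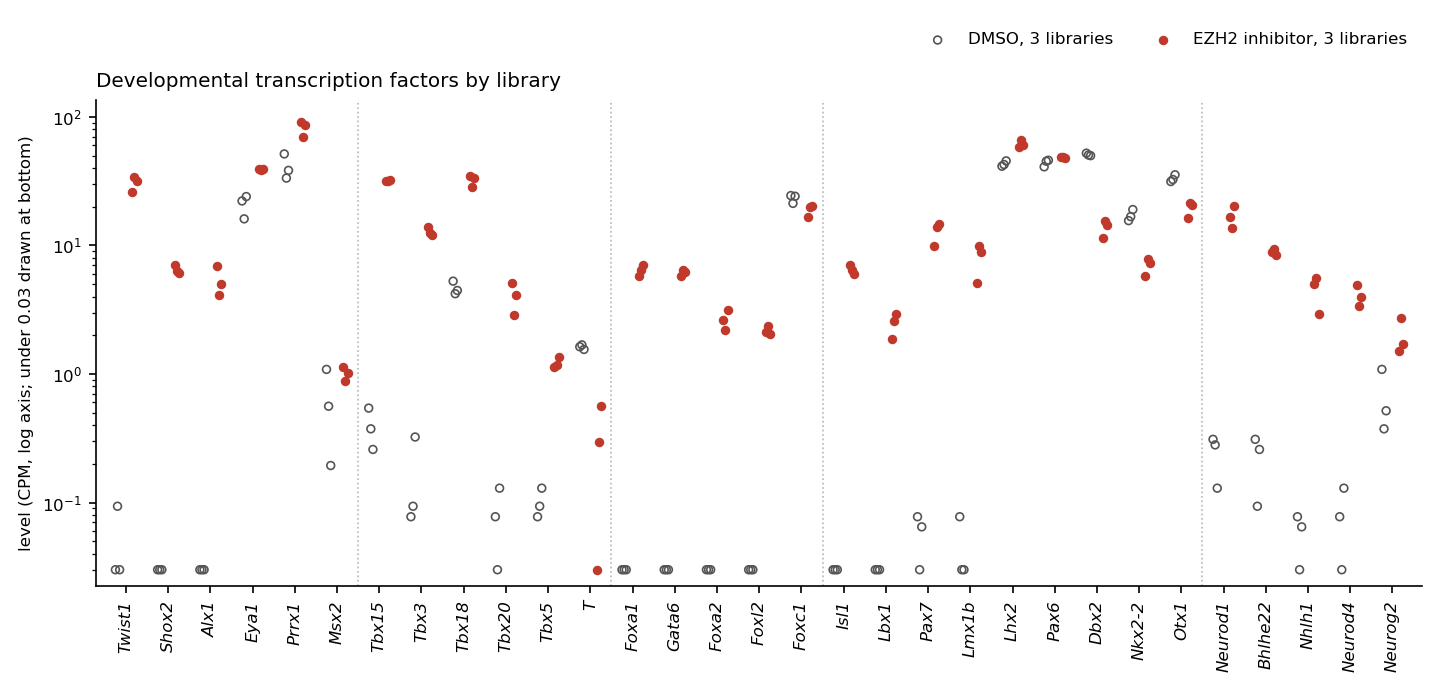
Level of developmental transcription factors of the mesoderm, T-box, forkhead and GATA, neural patterning and proneural lists in each library, in CPM on a log axis with 0 drawn at the bottom; open points are DMSO libraries and filled points inhibitor libraries. Twist1 and Tbx15, near 0 in DMSO, stand near 30 CPM under the inhibitor, and Isl1 at 6.004 to 7.01 CPM, while Pax6 and Foxc1, which were transcribed in DMSO, lie close to their DMSO values.

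Neural factors moved in both directions. Neural patterning factors, which divide the neural tube into regions, rose for 22 and fell for 3 of 31 tested members. Among them 3 had 0 and 4 had 1 to 3 counts in DMSO, and these could only rise. Isl1, a factor of motor and sensory neurons, had 0 counts in DMSO and 7.01, 6.49 and 6.004 CPM with the inhibitor, a rise of at least 84.4-fold, and the dorsal spinal cord factor Lbx1 was at least 32.6-fold higher. Pax7, a dorsal neural tube and muscle factor, went from 2 to 396 counts (ratio 255, interval 70.0 to 2109.5) and Lmx1b, a midbrain and hindbrain factor, from 1 to 253 (ratio 325, interval 57.9 to 12899). The forebrain factor Lhx2, at 43.1 ± 2.12 CPM in DMSO, rose 1.42-fold. Pax6, a factor of cortical progenitors, had 40.9, 45.2 and 46.0 CPM in DMSO and 48.8, 48.4 and 48.1 CPM under the inhibitor and did not pass (adjusted p = 0.156). The 3 members that fell were Dbx2, a ventral spinal cord factor (-1.87 on the log2 scale), Nkx2-2, a factor of ventral progenitors and the oligodendrocyte lineage (-1.28), and the forebrain factor Otx1 (-0.76).

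Proneural factors, the bHLH proteins that drive neuronal differentiation, rose for 5 and fell for 1 of 6 tested members. The 5 that rose stood under 1 CPM in DMSO, where genes can pass the filter through the inhibitor libraries alone. This count thus leans toward rises. The member that fell had a log2 fold change of -0.44. The listed members summed to 96.7 to 101.6 CPM in DMSO and 107.0 to 110.6 CPM under the inhibitor. Neurod1 had 0.310, 0.281 and 0.129 CPM in DMSO and 16.6, 13.6 and 20.3 CPM under the inhibitor, and Bhlhe22 had 0.310, 0.0935 and 0.259 and 8.89, 9.44 and 8.50 CPM. Neither pair of groups overlapped (log2 fold change 6.12 and 5.22, adjusted p = 2.57e-05 and 3.45e-05). Nhlh1 and Neurod4 rose from 2 and 3 counts to 141 and 120, and Neurog2 from 0.659 to 1.98 CPM (adjusted p = 0.0274, a call lost when any of 4 libraries was left out). Of 7 neural crest factors Tfap2a and Pax7 rose and Sox10 and the endothelin receptor gene Ednrb fell. Tfap2a and Pax7 were too low in DMSO to fall. Tfap2a went from 3 to 318 counts, and Ednrb had 1190.4, 868 and 934 CPM in DMSO and 386, 341 and 372 CPM under the inhibitor (log2 fold change -1.45, adjusted p = 0.000212).

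Among genes at 1 to 5 CPM in DMSO, those that rose at least 2-fold held more CG dinucleotides at their start, at the median, than the others. In the first 300 bases of each gene's most counted transcript, read from GENCODE M21, the 303 genes at 1 to 5 CPM in DMSO that rose at least 2-fold had a median of 20 CG, with quartiles of 12 and 31. The 1257 other tested genes at that level had a median of 13, with quartiles of 7 and 21. Genes under 1 CPM were left out, because they can pass the filter through the inhibitor libraries alone, and these bounds were chosen after the values were seen. At all levels the median was 19 for rises and 17 for falls of at least 2-fold and 20 over all tested genes. Developmental factors that rose had a median of 23 and Hox genes of 15. These medians are descriptions over genes with a sequence (98.3 to 100% of each class) and carry no test. The windows printed here are the 250 bases before the start of 6 genes described above, in build GRCm38.p6 from RefSeq, given 5′ to 3′ on the strand of the gene with each CG in capitals. They show starts with many and with few CG: Hoxb8, Twist1, Isl1 and St8sia2, which were at or near 0 or low in DMSO, rose, and Agt and Rab3b fell. The genes were chosen after the values were seen and do not stand for rises and falls as classes, whose medians lie close together.
Hoxb8: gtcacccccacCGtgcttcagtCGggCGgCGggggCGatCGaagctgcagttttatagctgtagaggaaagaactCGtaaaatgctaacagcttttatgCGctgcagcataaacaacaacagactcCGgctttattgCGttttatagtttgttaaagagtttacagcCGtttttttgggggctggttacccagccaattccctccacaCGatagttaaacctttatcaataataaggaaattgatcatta
Twist1: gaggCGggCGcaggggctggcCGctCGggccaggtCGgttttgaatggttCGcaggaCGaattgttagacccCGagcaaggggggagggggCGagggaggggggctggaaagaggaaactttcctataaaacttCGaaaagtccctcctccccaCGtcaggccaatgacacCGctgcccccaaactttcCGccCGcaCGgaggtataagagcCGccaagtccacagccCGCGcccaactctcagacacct
Isl1: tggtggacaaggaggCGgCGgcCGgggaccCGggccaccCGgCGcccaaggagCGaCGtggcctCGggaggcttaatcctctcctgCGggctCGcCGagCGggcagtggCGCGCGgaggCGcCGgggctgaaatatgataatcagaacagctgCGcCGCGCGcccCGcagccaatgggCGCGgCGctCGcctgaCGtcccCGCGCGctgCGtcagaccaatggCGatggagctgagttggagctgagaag
St8sia2: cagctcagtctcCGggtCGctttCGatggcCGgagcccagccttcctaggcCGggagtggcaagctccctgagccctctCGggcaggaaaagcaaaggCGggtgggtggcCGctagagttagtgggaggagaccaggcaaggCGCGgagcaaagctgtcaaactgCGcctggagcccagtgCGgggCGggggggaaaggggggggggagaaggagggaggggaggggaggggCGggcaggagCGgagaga
Agt: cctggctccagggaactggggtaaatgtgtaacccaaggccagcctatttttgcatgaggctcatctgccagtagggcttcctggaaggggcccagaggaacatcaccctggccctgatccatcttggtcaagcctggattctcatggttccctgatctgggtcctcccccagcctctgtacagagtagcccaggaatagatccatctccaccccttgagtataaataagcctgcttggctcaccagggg
Rab3b: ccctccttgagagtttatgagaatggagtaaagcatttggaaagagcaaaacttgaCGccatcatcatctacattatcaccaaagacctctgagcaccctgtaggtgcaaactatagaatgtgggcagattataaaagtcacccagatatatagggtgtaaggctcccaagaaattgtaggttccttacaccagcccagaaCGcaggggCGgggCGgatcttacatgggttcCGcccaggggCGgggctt

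The window of Isl1 (chr13:116309689-116309938, minus strand) held 33 CG, that of Twist1 (chr12:33957421-33957670, plus strand) 18, that of St8sia2 (chr7:74013683-74013932, minus strand) 15 and that of Hoxb8 (chr11:96281655-96281904, plus strand) 12. Rab3b (chr4:108878820-108879069, plus strand) had 6 and Agt (chr8:124569707-124569956, minus strand) 0. CG reads the same on both strands. Over all 32851 windows of this length in the table the median was 6, and 4.03% held at least as many as Isl1, 21.7% as Twist1, 27.3% as St8sia2, 33.5% as Hoxb8 and 50.4% as Rab3b. The window table covers 76.0% of the tested gene symbols, so classes of genes were compared on transcripts and not on these windows.

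Rises and falls both came in neighbourhoods. Of 949 genes that rose at least 2-fold and have a position, 29.1% lay next to another tested gene that also rose at least 2-fold, against 12.7% of the 11851 other genes. Without Hox and clustered protocadherin genes the shares were 26.4% and 12.7%. For falls of at least 2-fold the shares were 12.9% of 319 genes and 4.65% of the 12481 others. For calls of any size they were 50.0% and 33.6% for rises and 48.1% and 33.0% for falls. There were 26 runs of at least 3 consecutive tested genes that rose at least 2-fold, holding 96 genes. The longest, in build GRCm38, lay in HoxB (chr11:96194316-96354012, 10 genes), HoxA (chr6:52162417-52240854, 9 genes) and HoxD (chr2:74668310-74747918, 5 genes). Outside the Hox clusters, chr5:70957597-72149037 held the GABA-A receptor subunit genes Gabra2, Gabra4 and Gabrb1, and chr12:33147693-34917095 held Twist1 between Twistnb and the deacetylase gene Hdac9. A run on chr14:108908800-111683141 held the synaptic adhesion genes Slitrk1, Slitrk6 and Slitrk5. Among falls, a run on chr3:90511034-90606045 held S100a1, S100a13, S100a16 and S100a4, calcium-binding protein genes. The genes of these runs were named after their values were seen, and neighbours can share reads where their transcripts overlap.

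Ligands of the Wnt pathway fell. Wnt proteins bind Frizzled receptors and stabilise beta-catenin, and of 7 tested ligands 0 rose and 5 fell. Wnt4 had 38.8, 51.4 and 48.2 CPM in DMSO and 11.6, 12.8 and 13.7 CPM under the inhibitor, and Wnt7b, a ligand of forebrain progenitors, had 186, 228 and 217 and 102, 119 and 105 CPM. The groups did not overlap for either (log2 fold change -1.85 and -0.95, adjusted p = 0.000101 and 0.000423). Wnt5b, Wnt5a and Wnt7a fell 2.06-fold, 1.53-fold and 1.51-fold. Antagonists and targets of the pathway split into 5 rises and 3 falls among 11. Wif1, a secreted inhibitor, rose from 0.710 ± 0.381 to 12.2 ± 1.25 CPM (log2 fold change 4.03), and the ligand deacylase gene Notum rose 3.46-fold. Axin2, a direct target of beta-catenin, fell 1.35-fold (adjusted p = 0.00347), and the antagonist gene Sfrp4 fell 3.64-fold. The target gene Nkd1 showed a log2 fold change of 0.16 (adjusted p = 0.150, or 0.35 and 0.00476 after the GC trend was removed).

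Bone morphogenetic protein (BMP) genes moved the other way. BMPs act through Smad proteins and switch on the Id genes, and of 6 tested ligands 4 rose and 0 fell. Gdf10 had 0 counts in DMSO and was at least 30.4-fold higher, Bmp5 went from 1 to 87 counts (ratio 112, interval 19.6 to 4468), and Bmp7 rose 1.21-fold. Gdf10 and Bmp5 were too low in DMSO to fall. Of 12 antagonists and targets 8 rose and 1 fell. Id4 had 7.44, 6.27 and 6.27 CPM in DMSO and 33.8, 32.7 and 35.5 CPM under the inhibitor and Fstl1, a follistatin-like secreted protein, had 113, 120.4 and 124 and 341, 357 and 330.0 CPM. Both rose without overlap (log2 fold change 2.35 and 1.52, adjusted p = 1.88e-05 and 1.32e-05). The inhibitory Smad genes Smad6 and Smad7 rose 2.98-fold and 2.39-fold and the antagonist gene Chrd 2.08-fold, while Id3 fell 1.29-fold.

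The Hedgehog and Notch pathways held both rises and falls. Over all tested genes 21.4% rose and 20.7% fell, and the falls in these pathways were near or below that share. In the Hedgehog pathway, where ligand binding to Patched frees Smoothened and activates Gli factors, 6 of 12 members rose and 2 fell. Gli1, the target factor, rose from 2.04 ± 0.466 to 6.78 ± 0.239 CPM (log2 fold change 1.71, adjusted p = 0.000799), and the factor gene Gli3 and the co-receptor genes Boc and Cdon rose 1.93-fold, 2.35-fold and 1.54-fold. Ptch1, the receptor and itself a target, fell from 265 ± 7.61 to 223 ± 5.97 CPM (adjusted p = 0.00803). The ligand gene Shh fell 1.53-fold, in a call lost when any of 3 libraries was left out. In the Notch pathway, which keeps progenitors undifferentiated, 8 of 19 members rose and 4 fell. The ligand genes Jag1 and Jag2 rose 1.84-fold and 4.54-fold, the target gene Hey2 3.32-fold and the atypical ligand gene Dlk1 9.90-fold. Lfng, which modifies Notch receptors, had 459, 529 and 524 CPM in DMSO and 169, 199.8 and 192 CPM under the inhibitor and Notch1 503, 559.6 and 584 and 493, 548 and 514 CPM. Lfng fell (log2 fold change -1.43, adjusted p = 4.97e-05) and Notch1 did not pass (log2 fold change -0.08, adjusted p = 0.377, or 0.11 and 0.0398 after the GC trend was removed and -0.20 and 0.00946 without DMSO replicate 1).

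Some receptor tyrosine kinase genes changed, on both the ligand and the receptor side. Of 7 PDGF genes 5 rose and 0 fell, though the ligand gene Pdgfd was too low in DMSO to fall. Pdgfb, the ligand that gives the cells their name, had 67.4, 78.6 and 82.0 CPM in DMSO and 97.6, 97.9 and 91.1 CPM under the inhibitor. Its rise of 0.33 on the log2 scale (adjusted p = 0.0219) no longer passed when any of 5 libraries was left out (largest adjusted p = 0.0749). Pdgfra, its main receptor in oligodendrocyte precursors, had 28.4, 28.5 and 29.8 and 27.03, 25.4 and 29.1 CPM and did not pass (adjusted p = 0.398). Pdgfrb, the receptor of pericytes and mesenchyme, rose from 0.342 ± 0.138 to 3.93 ± 0.348 CPM (log2 fold change 3.43, adjusted p = 0.000265), and Pdgfd, a ligand of that receptor, from 3 to 231 counts (ratio 99.0, interval 33.5 to 484). Egfr, the receptor for the EGF of the medium, had 598, 437 and 465 CPM in DMSO and 253, 210.1 and 243 CPM under the inhibitor, with replicate 1 highest in each group. It fell 2.13-fold (adjusted p = 0.000907). The related receptor gene Erbb3 rose 5.13-fold from 0.493 ± 0.0595 CPM. Of 10 EGF receptor and ligand genes 2 rose, 1 fell and 7 did not pass. That is no more than the shares over all tested genes (21.4% rose and 20.7% fell).

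Of 10 FGF ligand and receptor genes 5 rose and 2 fell, though Fgf13 and Fgf10 were too low in DMSO to fall. Fgf1 had 36.7, 37.9 and 39.2 CPM in DMSO and 110.3, 113 and 120.4 CPM under the inhibitor (log2 fold change 1.60, adjusted p = 1.59e-05), Fgf13, a channel-binding family member, had 0 counts in DMSO and was at least 56.1-fold higher, and Fgf10, a mesenchymal ligand, went from 1 to 61 counts. The receptor gene Fgfr3 fell 1.30-fold and Fgfr1 did not pass (adjusted p = 0.171, or a log2 fold change of 0.32 and adjusted p = 0.000544 after the GC trend was removed). Genes that are induced by ERK and feed back on it rose for 9 and fell for 2 of 13. The phosphatase genes Dusp4 and Dusp6 rose 2.47-fold and 1.48-fold, the ETS factor genes Etv1 and Etv5 1.84-fold and 1.33-fold, and Spry3 from 0.710 to 7.52 CPM. After the GC trend was removed the call of Spred1 was lost (log2 fold change 0.52 before and 0.03 after, adjusted p = 0.758). Neurotrophin receptor and ligand genes fell for 4 and rose for 1 of 7. Ntrk2, the receptor of BDNF, had 609, 633 and 634 CPM in DMSO and 199.8, 213 and 207 CPM under the inhibitor, a clear separation (log2 fold change -1.60, SE 0.0495, adjusted p = 7.40e-06), and Ngfr rose 3.84-fold.

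Genes of the IGF and fetal growth list rose for 9 and fell for 4 of 14 tested members. Lin28b, Igf2bp1 and Plag1 among them were so low in DMSO that they could hardly fall. Lin28b, which blocks the maturation of let-7 miRNAs, had 0.0775, 0.187 and 0.129 CPM in DMSO and 12.4, 10.99 and 14.2 CPM under the inhibitor. Igf2bp1, a fetal mRNA-binding protein, had 0.0775, 0.468 and 0.323 and 23.5, 22.1 and 21.4 CPM. Both groups were far apart (log2 fold change 6.49 and 6.25, adjusted p = 1.62e-05 and 2.04e-05). Plag1, a growth factor regulator, went from 3 to 340 counts (ratio 146, interval 49.4 to 710.1), and Hmga2, a chromatin protein of fetal stem cells, rose 2.47-fold. The abundant binding protein genes Igfbp2 and Igfbp3 fell 1.66-fold and 1.29-fold.

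Imprinted genes, which are expressed from 1 parental allele, rose for 10 of 19 and fell for 0, though Magel2 was too low in DMSO to fall. Magel2 went from 1 to 229 counts (ratio 294, interval 52.3 to 11680). Grb10, an adaptor that restrains growth, had 6.67, 5.80 and 7.18 CPM in DMSO and 40.6, 43.6 and 41.6 CPM under the inhibitor, and Mest, at a far higher level, had 629, 628 and 621 and 1239, 1260 and 1223 CPM. The replicates of both were tight and the groups apart (log2 fold change 2.67 and 0.99, adjusted p = 1.32e-05 and 1.77e-05). Asb4 rose 7.50-fold and the cell cycle inhibitor Cdkn1c 5.003-fold, while Gnas, a G protein subunit, did not pass (adjusted p = 0.103, or -0.24 on the log2 scale and 0.00956 without DMSO replicate 1). After the GC trend was removed 2 members fell. Allele-specific expression cannot be read from these counts.

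Retinoid genes moved in both directions. Crabp1, a retinoic acid binding protein of the embryonic hindbrain, went from 2 to 233 counts (ratio 149.8, interval 41.0 to 1244) and Aldh1a2, an enzyme that makes retinoic acid, from 1 to 45. Aldh1a3, which makes it too, fell 1.79-fold, in a call lost when any of 4 libraries was left out. Rarb, a receptor and target of retinoic acid, had 54.8, 53.2 and 53.02 CPM in DMSO and 26.4, 27.4 and 29.6 CPM under the inhibitor and fell 1.93-fold (adjusted p = 0.000135). Of 13 members 4 rose and 3 fell, or 2 and 3 with DESeq2, while 21.4% of all tested genes rose and 20.7% fell. Crabp1 and Aldh1a2 were too low in DMSO to fall.

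Axon guidance genes rose more often than they fell. Semaphorins, plexins and neuropilins, which repel and attract growth cones, rose for 16 and fell for 5 of 30, or 17 and 3 after the GC trend was removed. Sema3e, Sema4f and Sema3f rose 5.04-fold, 4.90-fold and 3.75-fold and the abundant Sema6d 1.63-fold. Ephrins and Eph receptors, which sort cells by contact, rose for 10 and fell for 2 of 19. Efna5 and Epha7 were so low in DMSO that they could hardly fall. Efna5 went from 2 to 475 counts (ratio 305, interval 84.1 to 2529). Epha7 had 0.388, 0.281 and 0.323 CPM in DMSO and 15.8, 10.7 and 12.01 CPM under the inhibitor and Ephb2, which was abundant in DMSO, had 194, 227 and 222 and 92.1, 108 and 96.6 CPM. Epha7 rose (log2 fold change 5.22, adjusted p = 2.81e-05) and Ephb2 fell (log2 fold change -1.12, adjusted p = 0.000147). Slit, Robo, netrin and netrin receptor genes rose for 10 and fell for 1 of 16 (10 and 3 without DMSO replicate 1). The netrin receptor genes Unc5d and Unc5c rose 14.7-fold and 6.47-fold and Slit2 9.29-fold, and Slit3 was at least 18.9-fold higher than its 0 counts in DMSO. The ligand Ntn1, with 801, 898 and 885 CPM in DMSO and 319, 359.9 and 347 CPM under the inhibitor, fell (log2 fold change -1.33, adjusted p = 3.19e-05).

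Of 46 neurotransmitter receptor genes 25 rose, 3 fell and 18 did not pass. Gabra4, Gabrb1, Gabra5 and Chrm2 were so low in DMSO that they could hardly fall. Gabra4, a GABA-A receptor subunit, had 0.310, 0.374 and 0.323 CPM in DMSO and 41.8, 34.9 and 39.4 CPM under the inhibitor, and its neighbour Gabrb1 had 0.233, 0 and 0.388 and 9.51, 7.60 and 9.18 CPM. Both rose without overlap (Gabra4 log2 fold change 6.81, SE 0.161, adjusted p = 4.59e-06, Gabrb1 log2 fold change 5.19, adjusted p = 0.000233). Gabra5 and the muscarinic receptor gene Chrm2 rose from 3 and 4 counts to 71 and 151. The abundant glutamate receptor genes Gria2 and Grm5 had 201, 76.4 and 85.9 and 385, 167 and 210.5 CPM in DMSO and 251, 146 and 217 and 385, 254 and 343 CPM under the inhibitor. DMSO replicate 1 was highest in its group for both, the groups overlapped and neither passed (adjusted p = 0.153 and 0.366), while without that library both rose (log2 fold change 1.27 and 0.74, adjusted p = 0.00273 and 0.0122).

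Voltage-gated and related channel genes rose for 30 and fell for 13 of 79. The potassium channel genes Kcna1 and Kcnh3 rose 12.8-fold and 6.95-fold and the pacemaker channel gene Hcn4 8.32-fold, all from under 2 CPM in each DMSO library. The abundant Kcnc1 had 336, 374 and 389 CPM in DMSO and 382, 409.6 and 382 CPM under the inhibitor and did not pass (adjusted p = 0.276, or a log2 fold change of 0.29 and adjusted p = 0.000730 after the GC trend was removed). Of 18 neuronal markers 12 rose and 1 fell, and their summed level was 909 to 1301 CPM in DMSO and 1635 to 2038 CPM under the inhibitor. Dcx, a microtubule protein of young neurons, had 15.8, 6.27 and 7.76 CPM in DMSO and 67.8, 42.9 and 59.9 CPM under the inhibitor, and Nefl, a neurofilament subunit, had 0.388, 0.374 and 0.453 and 9.89, 8.26 and 9.29 CPM. Both rose (log2 fold change 2.50 and 4.44, adjusted p = 0.00170 and 2.08e-05). Stmn2 was at least 114-fold higher than its 0 counts in DMSO, and Gap43 fell 2.30-fold.

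The clustered protocadherins, cell surface proteins that give neurons their identity, moved by subcluster. Their genes lie in 3 groups on chromosome 18, and the groups were set apart after their values were seen. Of 21 tested beta genes 16 rose and 0 fell (median log2 fold change 0.99), of 22 gamma genes 1 rose and 14 fell (median -0.85) and of 9 alpha genes 1 rose and 0 fell (median 0.36). After the GC trend was removed the counts were 15 and 0 for beta and 2 and 14 for gamma genes. Pcdhb12 had 2.64, 2.53 and 3.10 CPM in DMSO and 11.01, 9.88 and 9.97 CPM under the inhibitor, and Pcdhb5 had 6.67, 6.17 and 6.14 and 15.6, 15.6 and 16.9 CPM. Both beta genes rose without overlap (log2 fold change 1.89 and 1.34, adjusted p = 0.000147 and 0.000147). Pcdhgc3 had 2036, 2371 and 2329.9 and 1366, 1534 and 1419 CPM and Pcdhgb4 had 11.2, 10.9 and 12.1 and 4.13, 3.84 and 3.51 CPM. Both gamma genes fell without overlap (log2 fold change -0.64 and -1.58, adjusted p = 0.000932 and 0.000183). Gamma genes share their last exons with each other, as alpha genes do, so the split of their counts between members is uncertain, whereas each beta gene is a separate exon.

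**Figure D4:**
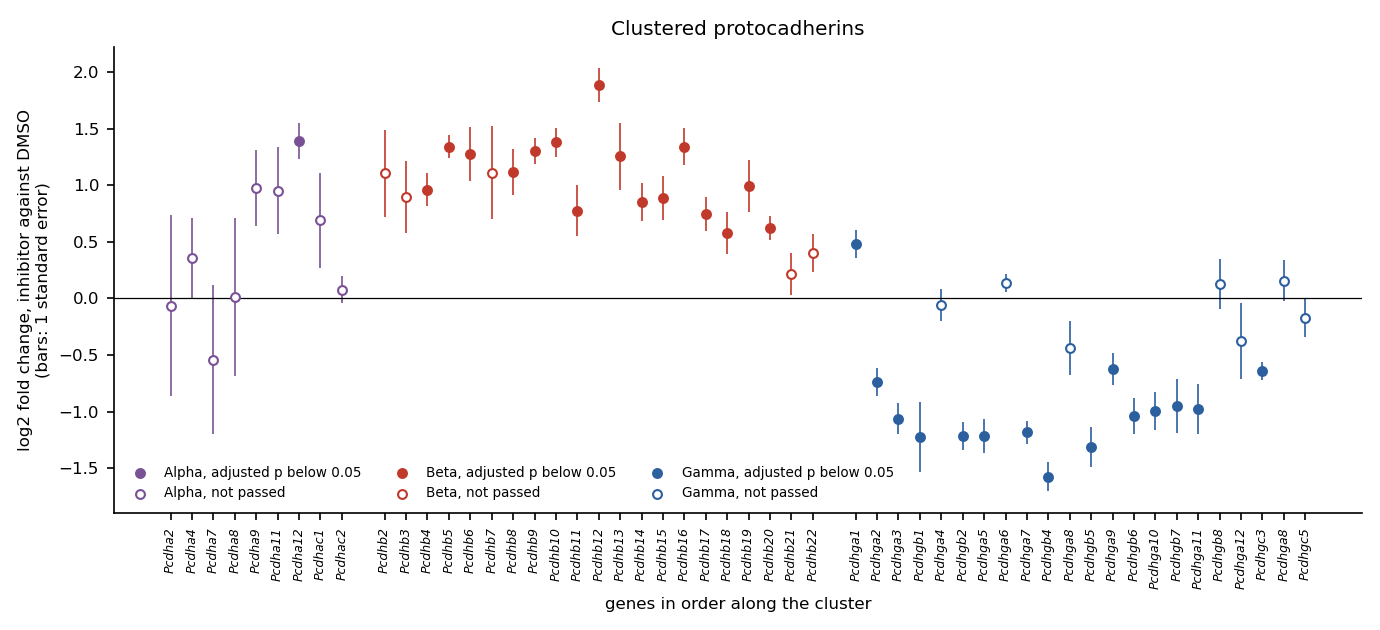
Log2 fold change of inhibitor against DMSO for the tested alpha, beta and gamma protocadherin genes, ordered by position along the cluster, with bars of 1 standard error; filled points passed at an adjusted p below 0.05. Beta genes lie above 0, with 16 of 21 passing, and 14 of 22 gamma genes passed below 0.

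Matrix genes changed their makeup. Collagen genes rose for 16 and fell for 5 of 29, though Col3a1 and Col6a3 were too low in DMSO to fall. Col3a1, a fibrillar collagen of connective tissue, had 0.155, 0 and 0.129 CPM in DMSO and 17.02, 20.1 and 19.6 CPM under the inhibitor (log2 fold change 7.39, adjusted p = 1.71e-05), Col6a3 had 0 counts in DMSO and was at least 41.6-fold higher, and the cartilage collagen gene Col9a2 rose 7.10-fold. Basement membrane collagens went apart: Col4a1 had 77.1, 85.4 and 87.4 CPM in DMSO and 161, 188 and 164 CPM under the inhibitor, a 2.05-fold rise, whereas Col4a5 had 203, 197 and 204 and 124, 123 and 118 CPM, a 1.66-fold fall. Dcn and Bgn, small proteoglycans that organise collagen, had 0 counts in DMSO and were at least 48.9-fold and 28.7-fold higher. Ncan, the lectican of brain matrix, fell from 1980.1 ± 169 to 1268 ± 94.1 CPM (adjusted p = 0.00133), while its relative Bcan stood at -0.00 on the log2 scale (adjusted p = 0.981), or 0.19 after the GC trend was removed (adjusted p = 0.00193).

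**Figure D5:**
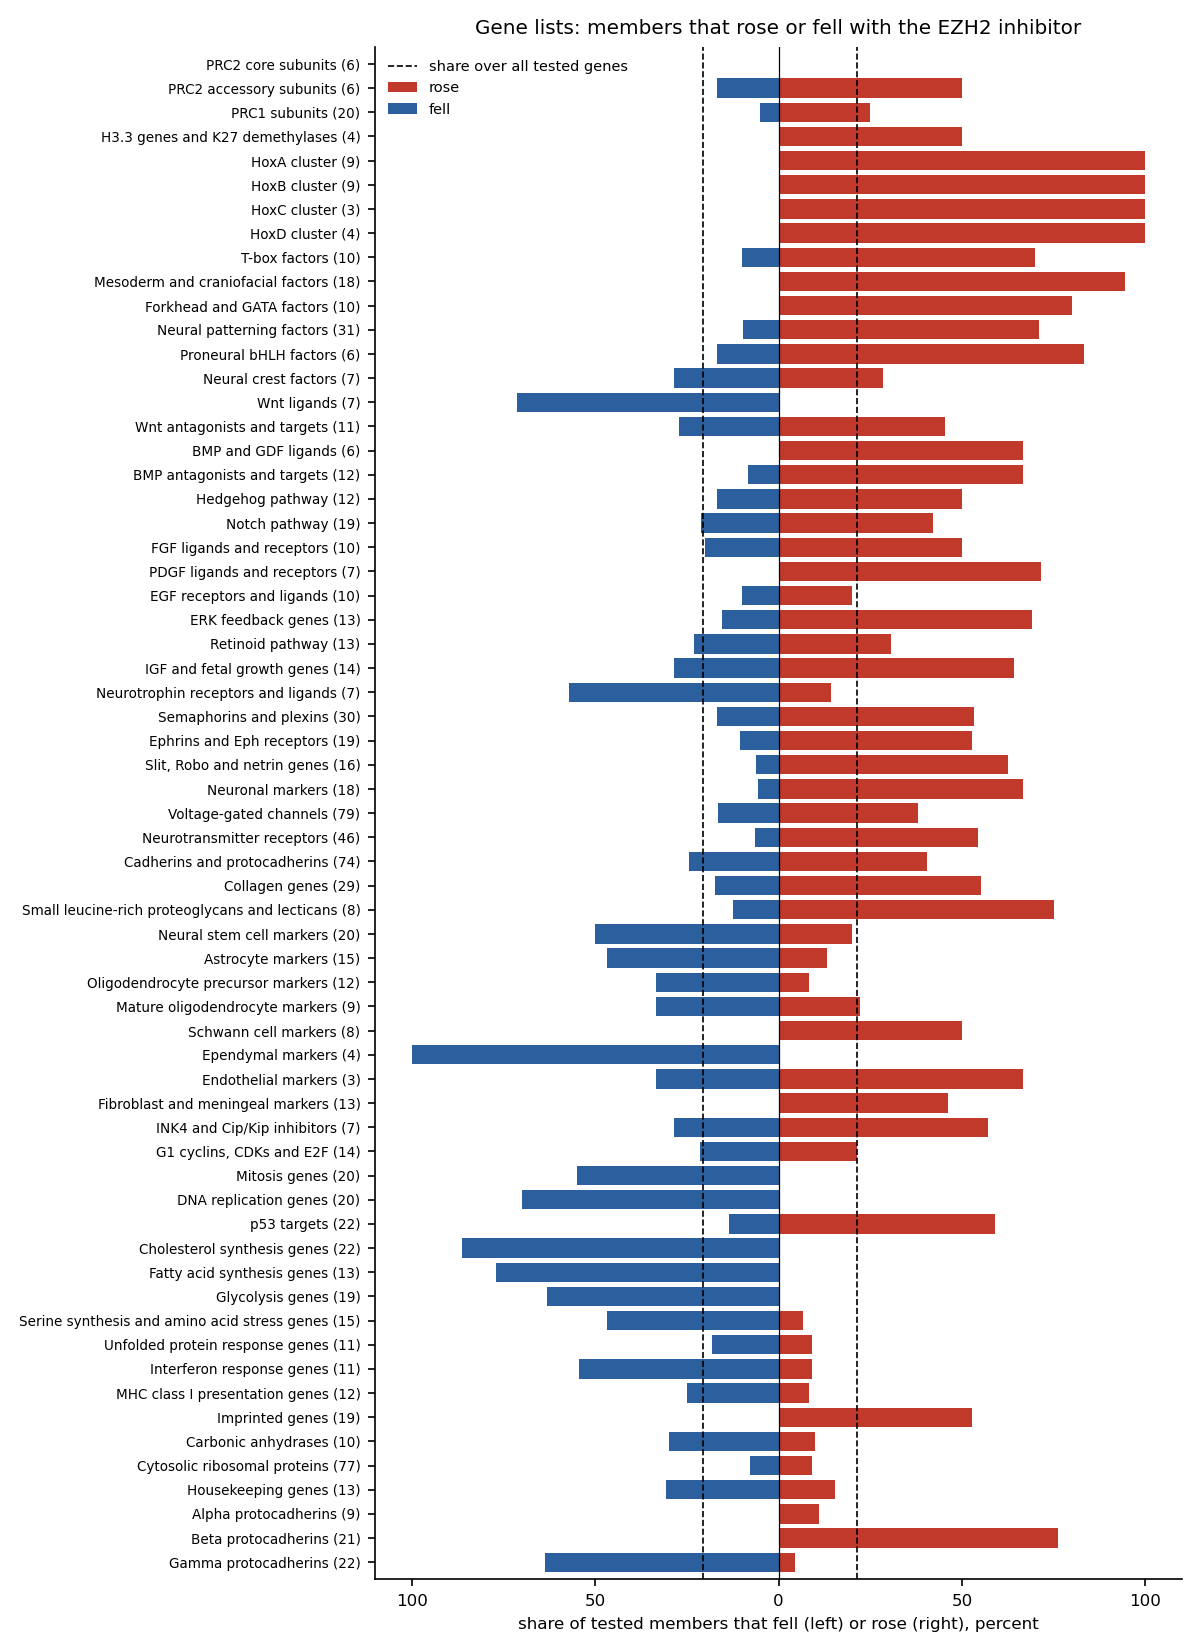
Share of tested members of each gene list that rose (bars to the right) or fell (bars to the left) at an adjusted p below 0.05, in percent, with the number of tested members beside the name. Dashed lines mark the shares over all tested genes, 21.4% for rises and 20.7% for falls. Hox, mesoderm, forkhead and beta protocadherin lists extend to the right, and cholesterol, fatty acid, glycolysis and DNA replication lists to the left. Members with few or no counts in DMSO pass the filter through their inhibitor values and can hardly fall. This tilts the Hox, forkhead, proneural and other lists that hold such members to the right.

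Markers of neural stem cells stayed high in both groups, and most calls among glial markers were falls. Neural stem cell markers rose for 4 and fell for 10 of 20, and their summed level was 9117 to 9554 CPM in DMSO and 8069 to 8387 CPM under the inhibitor. Sox2, a factor of neural stem cells, had 383, 374 and 411 CPM in DMSO and 317, 345 and 334 CPM under the inhibitor, and Nes, the intermediate filament nestin, had 1410.0, 1208 and 1254 and 1399.5, 1348 and 1399 CPM. Sox2 fell, in a call lost when any of 3 libraries was left out, and Nes did not pass (adjusted p = 0.267, or a log2 fold change of 0.28 and adjusted p = 0.0435 after the GC trend was removed). Vim and Fabp7, filament and fatty acid binding proteins of radial glia, stood at 2772 ± 168 and 2008 ± 13.97 CPM under the inhibitor. Vim fell 1.25-fold, Fabp7 did not pass (adjusted p = 0.642, or a log2 fold change of -0.44 and adjusted p = 0.0148 after the GC trend was removed), and the orphan receptor gene Nr2e1 fell 2.46-fold. Astrocyte markers fell for 7 and rose for 2 of 15, with Aldh1l1 down 2.98-fold and the sodium pump subunit gene Atp1b2 2.12-fold. Oligodendrocyte precursor markers fell for 4 and rose for 1 of 12 (4 rises after the GC trend was removed), with the receptor gene Gpr17 down 3.93-fold. Of 9 mature oligodendrocyte markers Ugt8a and Tspan2 rose and Cnp, Opalin and Trf fell.

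Markers of other cell types were at low levels in both groups. Ependymal markers fell for all 4 tested members, with a sum of 46.0 to 51.6 CPM in DMSO and 25.6 to 29.7 CPM under the inhibitor. Of 13 fibroblast and meningeal markers 6 rose and 0 fell, from a sum of 179 to 212 CPM to one of 299 to 353 CPM. Schwann cell markers rose for 4 of 8 tested members, from a sum of 127 to 139.7 CPM to one of 143 to 151 CPM, and endothelial markers for 2 of 3, from a sum of 16.2 to 17.8 CPM to one of 26.8 to 30.1 CPM. Muscle markers fell for 2 of 2, with a sum of 5.81 to 7.44 CPM in DMSO and 1.81 to 2.75 CPM under the inhibitor. Of the epithelial markers 0 of 1 listed member was tested, and 0 germline genes were listed. Neuronal and fibroblast marker sums were higher under the inhibitor, as were many of the neuronal and matrix genes described above, and their part in those results was not tested. The Schwann sum was higher too, while the neural crest factors summed to 1142 to 1471 CPM in DMSO and 662 to 696 CPM under the inhibitor.

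Of 20 DNA replication genes 14 fell and 0 rose (median log2 fold change -0.30), with the licensing gene Cdt1 down 1.48-fold and the helicase subunit gene Mcm2 1.37-fold. Of 20 mitosis genes 11 fell and 0 rose, while without DMSO replicate 1 12 fell and 8 rose. Mki67 had 529, 161 and 201 CPM in DMSO and 515, 264 and 399 CPM under the inhibitor, Top2a had 729.9, 415 and 457 and 707, 554 and 657 CPM, and replicate 1 was highest in each group of both. Neither passed (adjusted p = 0.501 and 0.349), but without DMSO replicate 1 both rose (log2 fold change 1.06 and 0.50, adjusted p = 0.0121 and 0.00738). Cdc20 and Plk1, mitotic regulators, fell 1.41-fold and 1.44-fold. Among G1 cyclins, kinases and E2F factors 3 rose and 3 fell of 14 (3 and 5 after the GC trend was removed). The counts of the main fit are near the shares over all tested genes (21.4% and 20.7%). Cdk6 had 5.74, 4.40 and 5.95 CPM in DMSO and 28.4, 26.1 and 28.5 CPM under the inhibitor and Ccnd2, a D-type cyclin that activates it, had 1418, 1133 and 1259 and 2326, 2192 and 2357 CPM. Both rose (log2 fold change 2.35 and 0.85, adjusted p = 4.06e-05 and 0.000452), whereas Ccnd1 fell 1.22-fold and E2f2 1.63-fold. Cdkn2a, which encodes p16Ink4a and p19Arf, had 57.3, 57.9 and 63.9 and 83.9, 105 and 96.9 CPM (log2 fold change 0.68, adjusted p = 0.00204), and Cdkn2c and Cdkn2d fell 1.49-fold and 1.42-fold. Of 22 p53 target genes 13 rose and 3 fell, with Eda2r up 2.20-fold. The rise of Ccng1 (0.63 on the log2 scale) was 0.11 after the GC trend was removed (adjusted p = 0.0621).

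Genes of lipid and sugar metabolism fell together. All 10 calls among 13 fatty acid synthesis genes were falls, from a sum of 14207 to 15569 CPM to one of 11144 to 12194 CPM. Acss2, which makes acetyl-CoA from acetate, had 182, 196 and 197 CPM in DMSO and 65.6, 72.9 and 70.8 CPM under the inhibitor (log2 fold change -1.46, adjusted p = 1.88e-05), and Fads1, a desaturase, Scd1 and Fasn, the fatty acid synthase, fell 1.51-fold, 1.49-fold and 1.40-fold. Cholesterol synthesis genes fell for 19 and rose for 0 of 22, with Dhcr7, the last enzyme of the pathway, down 1.97-fold and Fdft1, squalene synthase, 1.78-fold. Srebf2, the factor that drives them, fell 1.27-fold (adjusted p = 0.0197, a call lost when any of 4 libraries was left out). Glycolysis genes fell for 12 and rose for 0 of 19 (2 rose after the GC trend was removed). Gpi1 and Tpi1, isomerases of the pathway, fell 1.94-fold and 1.84-fold, the glucose transporter gene Slc2a1 1.67-fold and Pkm, pyruvate kinase, 1.22-fold. Gapdh, whose near-identical copies can share its reads, had 65.0, 75.7 and 62.6 CPM in DMSO and 41.8, 42.9 and 36.6 CPM under the inhibitor.

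Serine synthesis and amino acid stress genes fell for 7 and rose for 1 of 15, with the serine enzyme gene Psat1 down 1.32-fold and the mitochondrial enzyme gene Shmt2 1.54-fold. Unfolded protein response genes rose for 1 and fell for 2 of 11, namely Herpud1 up 1.23-fold and Manf and Pdia4 down 1.24-fold and 1.12-fold. Interferon response genes fell for 6 and rose for 1 of 11. Gbp2 and Gbp3, interferon-induced GTPases, fell 4.55-fold and 2.60-fold, and the signal transducer gene Stat2 1.58-fold. MHC class I presentation genes fell for 3 and rose for 1 of 12: H2-K1, Tap2 and the immunoproteasome gene Psmb8 fell 1.52-fold, 1.62-fold and 3.39-fold and the peptide transporter gene Tap1 rose 1.37-fold. B2m did not pass (log2 fold change 0.16, adjusted p = 0.0762). The calls of Herpud1 and Tap1 were lost without DMSO replicate 1 (log2 fold change 0.22 and 0.30, adjusted p = 0.0765 and 0.109). Carbonic anhydrases split into 1 rise, Car10, a brain relative without enzyme activity that went from 0.158 to 9.69 CPM, and 3 falls, Car8, Car3 and Car2, the last of them 1.79-fold, among 10 tested. Cytosolic ribosomal protein genes rose for 7 and fell for 6 of 77, or 6 and 18 without DMSO replicate 1, and housekeeping genes rose for 2 and fell for 4 of 13, or 3 and 7. The counts of these lists stand beside shares of 21.4% rises and 20.7% falls over all tested genes.

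The core subunits of the inhibited complex did not pass the test at the RNA level with all libraries in the fit. Ezh2, the target enzyme, had 134, 103 and 106 CPM in DMSO and 141, 131 and 137 CPM under the inhibitor, and the groups overlapped. By edgeR's quasi-likelihood test 0 of the 6 core PRC2 subunits passed, 1 had an unadjusted p below 0.05 (Ezh2), 1 passed with DESeq2 (Suz12) and 1 after the GC trend was removed (Rbbp4). Rbbp4 stood at -0.06 on the log2 scale (adjusted p = 0.403) and fell after the GC trend was removed (-0.41, adjusted p = 0.0321). Suz12 stood at 0.71 on the log2 scale (adjusted p = 0.139, or 0.27 and 0.212 after the GC trend was removed). Without DMSO replicate 1 Ezh2 and Suz12 rose, by 0.33 and 1.15 on the log2 scale (adjusted p = 0.00401 and 0.00289). Of the accessory subunits Jarid2 rose 1.61-fold, Aebp2 1.53-fold and E130012A19Rik 2.53-fold, and Phf19 fell 1.94-fold. PRC1 subunits rose for 5 and fell for 1 of 20 (7 and 4 without DMSO replicate 1). That count of rises is near the share over all tested genes, of which 21.4% rose and 20.7% fell. Pcgf2, a subunit of canonical PRC1, had 5.43, 5.89 and 7.11 CPM in DMSO and 22.8, 26.6 and 26.1 CPM under the inhibitor (log2 fold change 2.03, adjusted p = 7.89e-05). Bmi1 and Rnf2 rose by 0.86 and 0.77 on the log2 scale, values of 0.22 and 0.26 that did not pass after the GC trend was removed (adjusted p = 0.182 and 0.101). Kdm6b, an H3K27 demethylase, rose 1.36-fold, and H3f3b, which encodes H3.3, rose by 0.42, a value of 0.02 with the trend removed (adjusted p = 0.942).

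The response differed from that of K27M cells for many genes. The interaction of genotype and treatment over all 12 libraries passed for 4742 of 13241 genes (35.8%; 2632 higher and 2110 lower in K27M cells), and for 2738 of the 5408 wild-type calls that entered it. Means below are CPM of the transcripts listed in both inhibitor tables (SD, n = 3). Several of the large wild-type rises were in genes that K27M cells already transcribed in DMSO. Gabra4 stood at 0.342 ± 0.0441 CPM in wild-type and 6.08 ± 0.448 CPM in K27M cells under DMSO and at 38.6 ± 4.15 and 37.6 ± 1.66 CPM under the inhibitor (interaction -4.17 on the log2 scale, adjusted p = 9.46e-07). Grb10 went from 5.39 ± 0.269 to 38.05 ± 1.83 CPM in wild-type cells and had 47.2 ± 1.31 and 46.2 ± 3.27 CPM in K27M cells (interaction -2.85, adjusted p = 1.14e-07). Col11a1 went from 17.1 ± 3.92 to 104 ± 16.9 CPM in wild-type and from 79.5 ± 3.03 to 108 ± 5.16 CPM in K27M cells (interaction -2.16). The terms of Pcdh17, Fndc3c1, Igsf10 and Apcdd1 were -2.19, -1.99, -1.91 and -1.93. Under the inhibitor the wild-type mean of these 7 genes was 0.790 to 1.70 times the K27M mean, against 0.0562 to 0.445 times in DMSO. The 7 genes were picked for a negative term and a higher K27M level in DMSO. Ratios nearer to each other under the inhibitor thus follow largely from that choice and say nothing of other genes.

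The opposite held for some genes lower in K27M than in wild-type cells under DMSO, which were also picked with their terms known. Cdkn2a went from 60.7 ± 4.91 to 94.9 ± 9.27 CPM in wild-type and from 14.1 ± 0.585 to 89.1 ± 5.16 CPM in K27M cells (interaction 2.01, SE 0.119, adjusted p = 2.99e-06). Entpd5, a nucleotidase of the endoplasmic reticulum, fell from 89.2 ± 3.53 to 45.9 ± 3.76 CPM in wild-type cells and went from 4.64 ± 3.56 to 44.8 ± 4.51 CPM in K27M cells (interaction 4.25, adjusted p = 0.000272). Gpd1, a glycerol phosphate dehydrogenase, went from 172 to 70.6 CPM in wild-type and from 40.9 to 54.3 CPM in K27M cells, and Psd, an exchange factor of the GTPase Arf6, from 68.3 to 38.2 and from 26.2 to 44.3 CPM (interaction 1.69 and 1.59, adjusted p = 1.07e-05 and 8.15e-06). Trf went from 82.7 to 11.7 and from 35.7 to 13.7 CPM (1.42, adjusted p = 0.000241). Among Hox genes the term passed for 5 of 25, and for the other 20 the adjusted p was 0.0866 or higher. Hoxa3, Hoxa4 and Hoxa5 had higher terms in K27M cells (interaction 1.77, 2.40 and 2.74), where their DMSO means were 0.970, 0.401 and 1.21 CPM against 3.54, 2.52 and 8.59 CPM in wild-type cells. Hoxa9 and Hoxa10 had lower terms in K27M cells (-4.28 and -3.60), with 1.39 and 1.99 CPM in K27M and 0.0918 and 0.248 CPM in wild-type cells under DMSO. After the GC trend was removed the count over all genes fell to 2863, and the term still passed for 17 of the 17 genes named here.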

How the data were processed

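RNA was sequenced from 3 DMSO and 3 inhibitor libraries of wild-type cells, as polyA-selected TruSeq libraries per the labels' protocols, and the submitters' processing notes name kallisto, sleuth and the build GRCm38; no versions or strand setting are given in the sources used here. The values the authors deposited are estimated counts per transcript and hold at least 5 counts in 3 libraries for each listed transcript. From their values, not from a stated step, they appear divided by 1 size factor per library. The factors were read from the steps between repeated low values and undone, after which 44.9 to 56.7% of low values of single-transcript genes lay within 0.01 of a whole count, and counts were summed per gene and rounded; the authors' own test columns were not used. Rows that name no gene held 0.482 to 0.575% of the counts and were left out.

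Genes were tested with edgeR 4.0.16 (TMM, filterByExpr, quasi-likelihood test, Benjamini-Hochberg adjustment over all tested genes, threshold 0.05) in R 4.3.3, with 3 libraries against 3. The genotype difference is an interaction term over 12 libraries, on the 35426 transcripts listed in both inhibitor tables. Fold changes of genes with 0 counts in a group are bounds against 3 counts over the group; intervals cover counting error only. On simulated counts with 200 genes given a large change the test recovered 184 for the inhibitor comparison, with 13 false calls. For the interaction it recovered 177, with 9 false calls. Small changes, the GC trend and a library that stands apart were not simulated, so these numbers do not carry over to the calls reported here. Alternatives used DESeq2 1.42.0, its size factors, no filter, a replicate block, GC offsets from GENCODE M21 and each library left out.

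The members and lists were chosen with earlier results of these data known. Named genes are the 10 largest rises and falls of at least median abundance, called genes with 0 counts in DMSO or 3 or fewer under the inhibitor, PRC2, H3.3 and Cdkn genes, Hox genes, up to 6 members of each list by change and by level, and the largest genotype terms, without clone names; other names were chosen after their values were seen. Some genes that this rule names are not reported here.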

Additional observations from a re-analysis of the deposited data

Results flagged for a closer look

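The response to the inhibitor differed between wild-type and K27M cells, by the interaction term of edgeR's quasi-likelihood test over all 12 libraries for 17 named genes. Terms are log2 changes in K27M cells minus those in wild-type cells. The term was negative at -4.17 for Gabra4, -2.85 for Grb10, -2.16 for Col11a1, -2.19 for Pcdh17, -1.99 for Fndc3c1, -1.91 for Igsf10 and -1.93 for Apcdd1. It was positive at 2.01 for Cdkn2a, 4.25 for Entpd5, 1.69 for Gpd1, 1.59 for Psd and 1.42 for Trf. Among Hox genes it was 1.77 for Hoxa3, 2.40 for Hoxa4, 2.74 for Hoxa5, -4.28 for Hoxa9 and -3.60 for Hoxa10.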

How the results depend on the processing

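The counts of rises and falls were 2611 and 2402 with DESeq2, 2715 and 2826 with DESeq2 size factors in edgeR, 2747 and 2727 with no filter on low counts, 2815 and 2704 on the deposited scale and 3093 and 2849 after the GC trend was removed, all within 1.5 times the reported counts. Centring on the median, chosen after seeing the data, gave 2402 and 3090. Without 1 library at a time the rises ran from 1674 to 3895 and the falls from 1670 to 3807, and those of at least 2-fold from 853 to 1465 and from 296 to 399. Leaving out DMSO replicate 3 (1674 and 1670) or inhibitor replicate 3 (1723 and 1702) lowered both counts by over 1.5 times, and leaving out DMSO replicate 1 raised the rises of at least 2-fold to 1465. The genotype difference was called for 2863 genes after the GC trend was removed, an alternative chosen after seeing the data, and for 3283 to 6901 without 1 library. The cause was not tested.

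With the replicate number as a block 3946 genes rose and 3186 fell (3601 and 3336 with the GC trend removed too), and 5827 genotype terms passed. The labels tie no number to a shared batch. Deviations of same-numbered DMSO and inhibitor libraries correlated at 0.79, 0.86 and -0.30. The numbers 1 and 2 thus went with shared deviations across the groups and the number 3 did not. Inhibitor replicate 3 correlated best with DMSO replicate 1, and inhibitor replicate 2 also correlated with DMSO replicate 3 (0.74). Whether the numbers mark batches cannot be told from these libraries.

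Removing the GC trend turned the direction of Bcan (log2 fold change 0.19), Fabp7 (-0.44) and Notch1 (0.11). With the block added these stood at 0.19, -0.44 and 0.11, and B2m at -0.37. The calls of Aebp2, Aldh1a3, Bmp7, Ccnd1, Ccng1, Fgfr3, Gabra2, Herpud1, Id3, Manf, Neurog2, Pdgfb, Pdia4, Pkm, Shh, Sox2, Spred1, Srebf2, T, Tap1, Tap2 and Vim were lost without at least 1 library, Herpud1 with the highest adjusted p (0.156, edgeR). All 17 genotype terms listed above passed in the same direction under each alternative run.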
